A study of Mus musculus with 2 samples.

Results

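Cluster 4 of the mouse corneal cells held 2447 of the 28867 cells in the deposited table, 1535 from unwounded (UW) corneas and 912 from wounded (W) corneas. Its cells were taken by the cluster number deposited for each cell. The genes *Dsg1a*, *Cldn17*, *Muc15*, *Krt16* and *Areg* were taken as its 5 markers. The clusters had been made from these same counts over both libraries, so a level in cluster 4 relative to another cluster describes how the cells were grouped and is given without a test. The UW library pooled the corneas of 4 male mice without a wound, and the W library those of 4 male mice taken 24 h after the central epithelium inside a 2.5 mm trephine mark had been scraped off with a rust ring remover. The mice were 6 to 8 weeks old and their strain is not given in the sources used here. The surgery was done under pentobarbital with topical procaine, and wounds were treated with ofloxacin. Each condition was therefore 1 library, and cells of a library are no replicates. No difference between UW and W below has a replicate check, no p-value is given, and the intervals cover counting error only.

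The corneal epithelium is stratified. Basal cells sit on the basement membrane and divide, the suprabasal (wing) cells above them are joined to each other by many desmosomes, and flat superficial cells carry the tight junctions and membrane mucins that face the tear film. Desmosomes link the keratin filaments of neighbouring cells through the cadherins desmoglein and desmocollin and the plaque proteins plakoglobin, plakophilin and desmoplakin. When the epithelium is scraped, cells at the wound edge flatten and slide as a sheet, and keratinocytes of injured epithelia are known to make keratins 6, 16 and 17 and ligands of the EGF receptor.

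Cells of cluster 4 were deeply covered in both libraries. The median cell had 26359 UMIs and 4489 genes in UW and 20584.5 UMIs and 3611.5 genes in W, and the quartiles were 23020.5 and 30470 UMIs in UW and 14775 and 31850 in W. Over all of its cells, the cluster held 43179938 UMIs in UW and 22659585 in W. The median share of mitochondrial UMIs was 1.76% in UW and 2.28% in W. One deposited set of doublet calls marked 73 UW cells and 1 W cell of the cluster, while the summary column listed every deposited cell as a singlet. The libraries had 52 cell barcodes in common. Of the cluster 4 barcodes, 7 of UW recurred somewhere in W and 2 of W recurred in UW, and none was in cluster 4 both times.

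Cluster 4 made up 11.4% (exact Clopper-Pearson 95% interval 10.8 to 11.9) of the UW epithelial cells and 10.7% (10.1 to 11.4) of the W ones, where the epithelium was taken as clusters 1 to 9 and 11. The difference of −0.65 percentage points was within the counting intervals, which overlapped. Of all cells of a library, the cluster made 9.33% (8.89 to 9.79) in the UW library and 7.34% (6.89 to 7.82) in the W library. UW gave 62.7% (60.8 to 64.6) of its cells, between 28.7% for cluster 8 and 80.6% for cluster 1. When clusters 8 and 11, which had the highest summed levels of replication genes, were left out of the epithelium after the data had been seen, the share of cluster 4 was 12.4% in UW and 13.8% in W, so the sign of the difference depended on the denominator.

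*Dsg1a*, a desmosomal cadherin (GRCm38 chr18:20310811-20343350, plus strand), was highest in cluster 4 in both libraries. Its summed level was 727 counts per 1000000 UMIs (CPM; exact Poisson 95% interval 719 to 735) in UW and 114 CPM (110 to 119) in W, rank 1 of the 10 epithelial clusters. The nearest clusters were cluster 1 with 570 CPM in UW and 94.5 in W, and cluster 2 with 549.8 and 110.4 CPM. Cluster 4 was thus above the mean of the 9 other epithelial clusters by log2 1.72 in UW and 1.70 in W, although the level fell by log2 2.67 (2.61 to 2.73) from UW to W. *Dsg1a* also fell in the 9 other clusters, with log2 ratios from −3.95 in cluster 3 to −1.87 in cluster 6. *Dsg1a* has near-identical copies, *Dsg1b* and *Dsg1c*, next to it, so the split of reads among them is uncertain. *Dsg1b* had 61.6 CPM in UW and 37.6 in W and was also highest in cluster 4, and *Dsg1c* had 0.116 CPM in UW and no UMI in W.

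*Muc15*, a membrane mucin (chr2:110721340-110739527, plus strand), had 230 CPM (226 to 235) in UW and 100.3 CPM (96.2 to 104) in W. Cluster 4 ranked 1 of 10 in UW, beside 225 CPM in cluster 1, and 2 of 10 in W, behind 101.2 CPM in cluster 2. Its level fell by log2 1.20 (1.13 to 1.27). *Cldn17*, a claudin (chr16:88505807-88506978, minus strand), was a low gene with 47.0 CPM (45 to 49.1) in UW and 66.5 CPM (63.2 to 70.0) in W. It was highest in cluster 4 in both libraries, with log2 2.62 above the mean of the other clusters in UW and 1.75 in W. The nearest were cluster 1 with 30.0 CPM in UW and 57.3 in W, and cluster 2 with 19.4 and 43.5 CPM. Its log2 ratio of W over UW in cluster 4 was 0.50.

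*Krt16* is a keratin gene of injured and hyperproliferative epithelia (chr11:100246091-100248902, minus strand). In UW cluster 4 had 879 CPM (870 to 888), which ranked 6 of 10, below 1402 CPM in cluster 1 and 1107 CPM in cluster 5. In W it had 12893 CPM (12847 to 12940), which ranked 1 of 10, above 9340 CPM in cluster 2 and 9164 CPM in cluster 1. The log2 ratio of W over UW was 3.87 in cluster 4 and between 1.23 in cluster 9 and 5.11 in cluster 6 elsewhere in the epithelium. *Areg*, which encodes the EGF receptor ligand amphiregulin (chr5:91139599-91148432, plus strand), had 290 CPM (285 to 295) in UW, ranking 3 of 10 behind cluster 5 with 590.1 CPM and cluster 2 with 346 CPM. It had 1576 CPM (1559 to 1592) in W, ranking 1 of 10, with cluster 2 at 1507 CPM, and its log2 ratio was 2.44. The *Krt16* of the label was thus a high level in W and not in UW, whereas *Dsg1a* and *Cldn17* ranked first in both libraries.

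**Figure D1:**
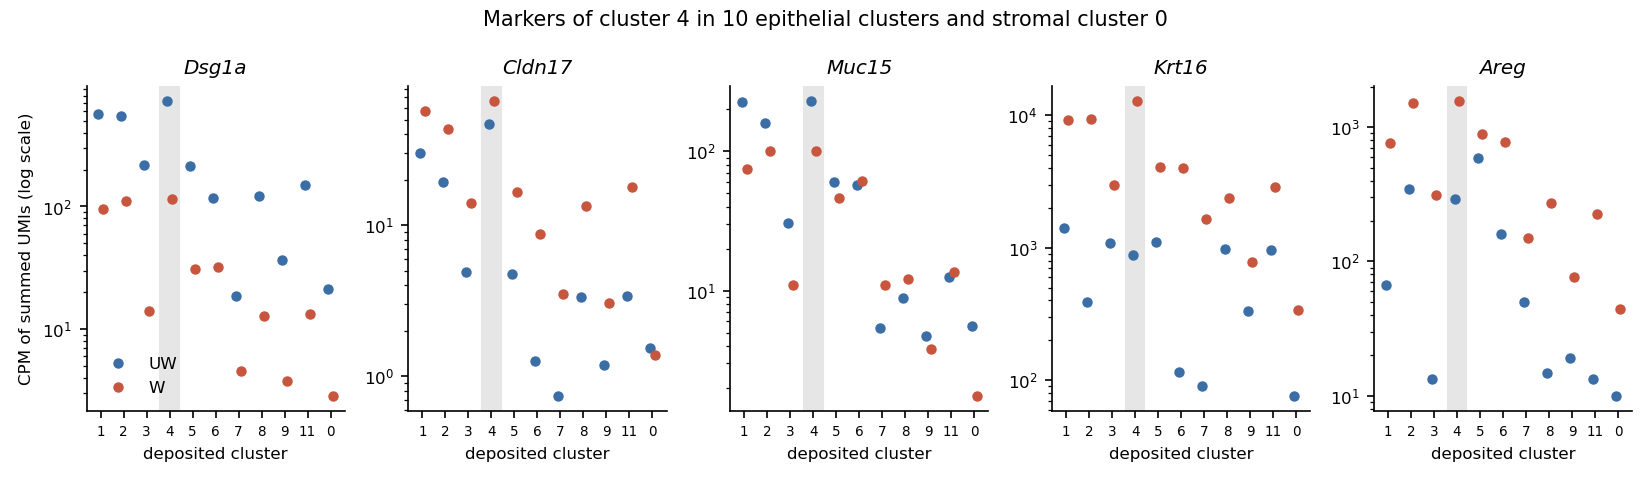
Summed level of each marker in CPM (log axis) in the 10 epithelial clusters and stromal cluster 0, with UW in blue, W in red and cluster 4 shaded. *Dsg1a* in cluster 4 was at 727 CPM in UW and 114 CPM in W, the highest point of each colour, while *Krt16* ranked 6 of 10 in UW and 1 of 10 in W.

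Cells were then compared one by one after each had been thinned to 5000 UMIs, which left out 40 UW and 19 W cells of the cluster. *Dsg1a* had a UMI in 96.4% (95.3 to 97.3) of UW cells and 36.8% (33.7 to 40.1) of W cells, with a median of 3 and 0 UMIs. *Krt16* went the other way, from 67.8% (65.4 to 70.2) of UW cells to 99.9% (99.4 to 100) of W cells, and its median from 2 to 64 UMIs. *Areg* had a UMI in 55.3% (52.7 to 57.8) and 86.7% (84.3 to 88.8) of cells, *Muc15* in 66.6% (64.2 to 69.0) and 37.3% (34.1 to 40.6), and *Cldn17* in 20.3% (18.3 to 22.5) and 27.1% (24.2 to 30.1). Without thinning, *Dsg1a* had a UMI in 99.9% of the UW cells and in 73.9% of those from W, and *Krt16* in 90.1% and 100% (exact interval from 99.6).

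Free RNA gives UMIs in cells that do not make a gene, so the same shares were taken in the stromal cells of cluster 0, whose median depth was 11853 UMIs in UW and 17588 in W. After thinning, *Dsg1a* had a UMI in 10.2% of stromal cells in UW and 1.58% in W, *Muc15* in 2.42% and 0.820%, *Cldn17* in 0.604% and 0.468%, and *Areg* in 4.36% and 19.0%. All of these shares were below those of cluster 4 in the same library. *Krt16* had a UMI in 32.7% of stromal cells in UW and 79.0% in W, so its presence in a cell says little in W. By summed level, cluster 4 exceeded the stroma 11.5-fold in UW and 37.7-fold in W for *Krt16*, and 34.3-fold and 39.9-fold for *Dsg1a*.

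At least 3 of the 5 markers were seen in 1090 of 1495 thinned UW cells (72.9%) and 574 of 893 thinned W cells (64.3%) of cluster 4. The shares were 58.1% and 63.7% in cluster 2, 58.9% and 48.9% in cluster 1, and 0.302% and 0.820% in the stroma. Cluster 4 was thus above both clusters 1 and 2 on this count in UW. In W it was above cluster 1, but the share in cluster 2 lay within the counting error of that in cluster 4. All 5 markers were seen in 95 UW and 32 W cells. In UW, *Areg* was found about as often with a *Krt16* UMI, in 56.1% (53.0 to 59.2) of 1014 cells, as without one, in 53.4% (48.9 to 58) of 481 cells. *Dsg1a* was found in 95.9% (94.4 to 97.0) of the cells with *Krt16* and 97.5% (95.7 to 98.7) of those without.

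**Figure D2:**
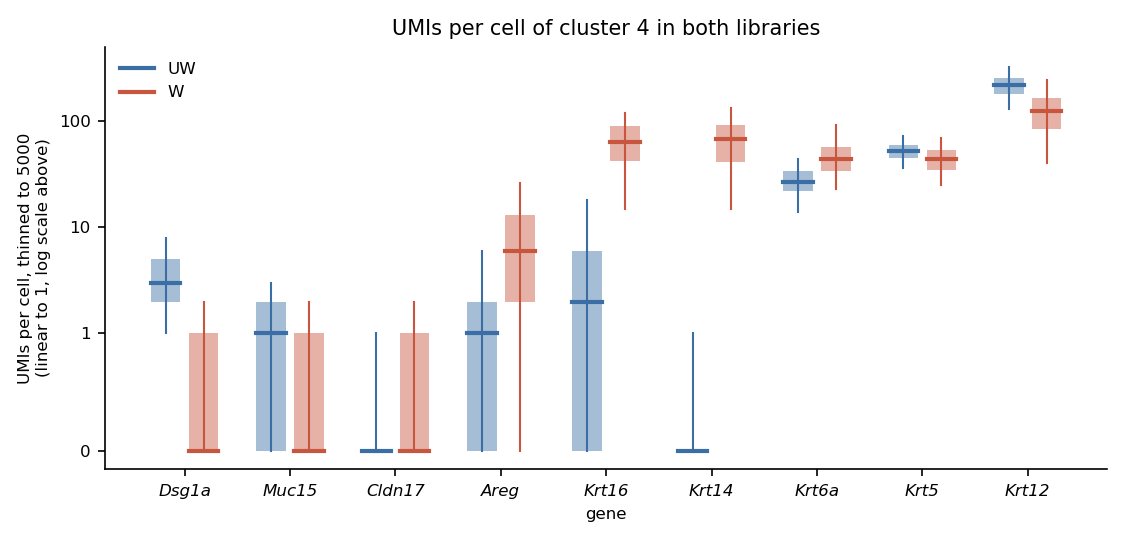
UMIs per cell of cluster 4 after thinning to 5000 UMIs, with a linear axis up to 1 UMI and a log axis above. Thick lines are medians, boxes the quartiles and thin lines the 5th to 95th percentiles of 1495 UW (blue) and 893 W (red) cells. The median of *Krt14* was 0 in UW and 68 in W, and that of *Krt12* 220 and 124.

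Over all genes, 2798 passed the level floor in cluster 4, set at 50 CPM in a library and 20 counts over both. A gene under 50 CPM in 1 library passed it through the other library alone. Counts of list members that rose or fell therefore rest partly on the floor. Of these, 213 (7.61%) were higher in W by log2 1 or more and 392 (14%) lower. The median log2 ratio of W over UW of the 2798 genes was −0.24, and list medians are to be read against that value. The share of genes that fell was the highest of the 10 epithelial clusters, where it otherwise ran from 6.47% in cluster 9 to 12.8% in cluster 2. The share that rose lay within the range of the others, 5.81% in cluster 5 to 13.7% in cluster 7. These shares also rest on the depth of each sum, and their difference between clusters was not tested.

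**Figure D3:**
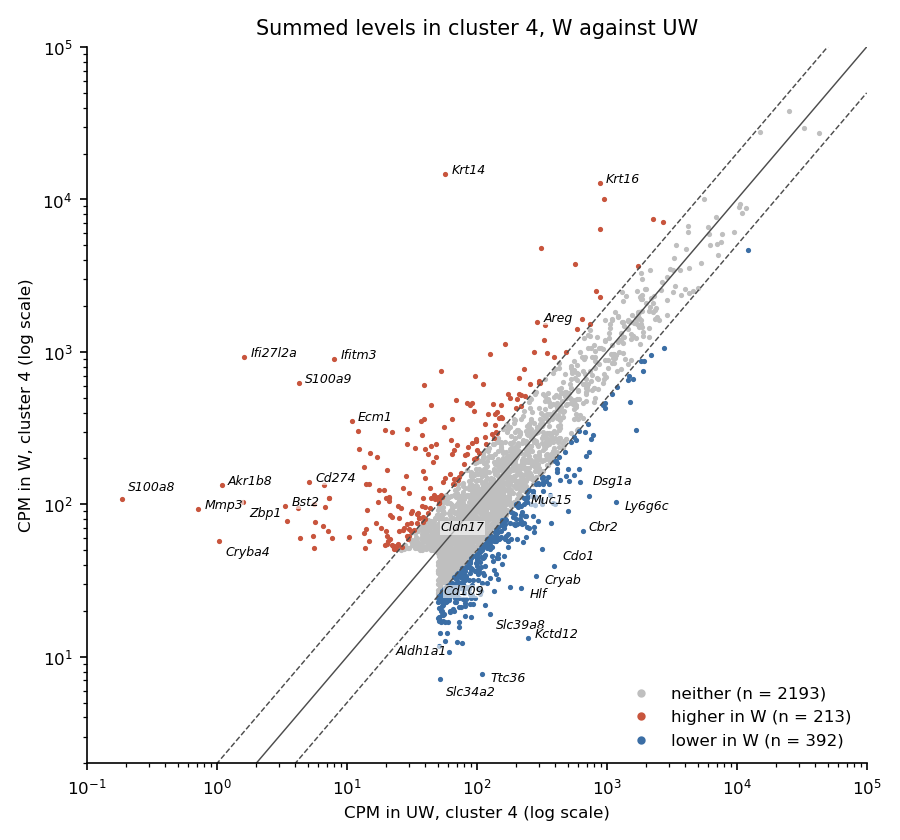
Summed level of each of the 2798 genes past the floor in cluster 4, UW on the x axis and W on the y axis, both in CPM on log axes. The solid line is equality and the dashed lines are log2 1 and −1, with 213 genes above the upper dashed line (red) and 392 below the lower (blue).

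*Krt12*, the cornea-specific keratin, had 42955 CPM in UW and 27157 CPM in W and was above the mean of the other clusters by log2 1.10 and 1.13. *Krt5*, its basal partner, had 10615 CPM and 9300 CPM, by summed level the highest of the 10 clusters in either library. Per thinned cell of W, *Krt5* had a median of 44 UMIs in cluster 2 and the same in cluster 4. *Krt15* had 6121 and 5943 CPM. *Krt14*, the basal partner of *Krt5*, had 57.3 CPM (55.1 to 59.6) in UW, no more than the 57.4 CPM of the stromal cells of that library, and 14624 CPM (14574 to 14674) in W, 17.8-fold over the stroma. Per thinned cell, *Krt14* had a UMI in 19.0% of UW and 99.9% of W cells of the cluster, and the lowest 5% of the W cells had 15 UMIs or fewer. The log2 ratio of *Krt14* was 7.99, beside 7.71 in cluster 2, 6.98 in cluster 1 and 0.93 in cluster 9. Several other basal genes were under the floor in both libraries. The integrin gene *Itgb4* had 1.37 CPM in UW and 11.9 in W, the laminin gene *Lamb3* 0.764 and 6.84, and *Itga3* 1.51 and 3.44.

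Of the 15 basal genes on the list, 8 were past the floor. *Krt14* and *Col17a1*, a transmembrane collagen of the hemidesmosome, rose by at least log2 1, the latter from 139 to 333 CPM (log2 1.26), and none fell, beside 7.61% of all genes higher and 14% lower. *Itga6* had 146 and 271 CPM and *Ccnd1* 114 and 186 CPM, both short of log2 1. Of the 11 superficial genes, 5 were past the floor and 2 fell. *Upk1b*, a uroplakin of the apical membrane, went from 753 to 269 CPM (log2 −1.48) and *Lypd2* from 12150 to 4635 CPM (log2 −1.39). The late superficial genes *Lce3a* (7.83 and 6.22 CPM) and *Krt78* (22.5 and 8.16 CPM) were under the floor in both libraries. All 10 genes of the corneal list were past the floor, of which *Tkt*, a transketolase that is a major soluble protein of the cornea, fell from 1818 to 869 CPM (log2 −1.07). *Elf3*, an epithelial transcription factor, had 970 and 1608 CPM (log2 0.73), and *Pax6*, the master regulator of the eye, 325 and 278 CPM. The summed basal list was 17456 CPM in UW and 30915 CPM in W, of which *Krt14* gave 57.3 and 14624 CPM, so the rise of the sum was that of *Krt14*. The summed superficial list was 14868 and 6829 CPM.

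Of the 7 conjunctival genes, 4 were past the floor and 2 rose, both of which passed it through W alone. These were *Krt17*, from 19.8 to 306 CPM (log2 3.95), and *Krt19*, from 48.7 to 251 CPM (log2 2.36). Their count is therefore not set beside the share of all genes. *Krt4*, with 142 and 103 CPM, and *Krt13*, with 1834 and 3271 CPM, were past the floor in both libraries and counted as neither higher nor lower. Of the 5 limbal genes, 2 were past the floor, both through W alone. *Ifitm3* went from 7.99 to 892 CPM (log2 6.80) and *Gpha2* from 10.4 to 60.8 CPM (log2 2.55). A rise of both followed from the floor, so their count is not set beside the share of all genes. *Ifitm3* was higher in the stroma than in cluster 4, at 967 CPM in UW and 5567 CPM in W. The limbal list summed to 26.0 CPM in UW and 1011 CPM in W in cluster 4, and to 4155 and 13289 CPM in the stroma. The part of free RNA in these rises was not tested.

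The genes with the highest ratios of W over UW included members of the interferon response. *Ifi27l2a* went from 1.62 to 921 CPM (log2 9.15), *Zbp1*, a sensor of Z-form nucleic acids, from 1.60 to 103 CPM (log2 6.01) and *Bst2*, tetherin, from 3.36 to 98.2 CPM (log2 4.87). *Cd274*, which encodes the checkpoint ligand PD-L1, went from 5.14 to 140.3 CPM (log2 4.77). In the stroma of W, *Ifi27l2a* was at 1375 CPM and *Bst2* at 917 CPM, above cluster 4, *Zbp1* was at 54.7 CPM, 1.89-fold below it, and *Cd274* was at 16.7 CPM. *Cd274* rose by log2 1 or more in 4 of the other 9 epithelial clusters and had a log2 ratio of −0.48 in cluster 7.

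*S100a8* went from 0.185 to 109 CPM (log2 9.20) and *S100a9* from 4.24 to 628 CPM (log2 7.21). These are alarmins of neutrophils and of stressed keratinocytes. In W, cluster 13, where both were highest, had 13612 CPM of *S100a8* and 19963 CPM of *S100a9*, 1.47 counts of *S100a9* for each of *S100a8*. The stroma of W had 46.0 CPM of *S100a8*, so cluster 4 was 2.36-fold above it, and 41.4 CPM of *S100a9*, 15.2-fold below cluster 4. The ratio of *S100a9* to *S100a8* was 5.78 in cluster 4, 12.1 in cluster 2, 3.51 in cluster 1 and 0.901 in the stroma. The 3 other neutrophil genes on the list, *Csf3r*, *Cxcr2* and *Retnlg*, were at most at 0.309 CPM in cluster 4, and *Retnlg* had no UMI in either library. *S100a9* had a UMI in 58.3% of thinned W cells of the cluster.

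*Mmp3*, stromelysin 1, went from 0.718 to 93.0 CPM (log2 7.02), but the stroma of W had 4515 CPM and stromal cluster 10 had 8631 CPM. *Mmp3* in cluster 4 of W was 0.0206 of the stromal level, and its log2 ratio ran from 5.28 to 6.88 in the other 9 epithelial clusters. The part of free RNA in this rise was not tested. The stromal genes as a list summed to 247 CPM in UW and 366 CPM in W, against 75326 and 39120 CPM in the stroma. *Kera* had 19.0 and 15.9 CPM, and of the 8 genes, of which 2 were past the floor, *Lum*, lumican, was past log2 1 (29.3 to 59.6 CPM, log2 1.03; 7.61% of all genes rose) and *Dcn*, decorin, had 137 and 212 CPM (log2 0.63).

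Other genes of this group exceeded the stroma of W. *Ecm1*, extracellular matrix protein 1, went from 10.9 to 354 CPM (log2 5.02), 10.5-fold over the stroma. *Akr1b8*, an aldo-keto reductase, went from 1.09 to 134 CPM (log2 6.94), 5.45-fold over it. *Cryba4*, a beta crystallin, went from 1.04 to 57.1 CPM (log2 5.78), 30.4-fold over it and the highest of the 10 clusters in W. *Ecm1* had a smaller ratio in every other epithelial cluster, at most log2 4.35 in cluster 1. By level of *Ecm1*, cluster 4 ranked 9 of 10 in UW and 5 of 10 in W. Above it in W were cluster 7 with 1367 CPM, cluster 6 with 1130, cluster 2 with 642 and cluster 3 with 411 CPM.

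Markers of other cell types were otherwise near 0. Monocyte and macrophage genes summed to 15.7 CPM in UW and 43.2 CPM in W, of which *Lyz2* gave 15.7 CPM in W. The same list summed to 22097 CPM in cluster 14 of W. T cell genes summed to 0.0463 and 1.94 CPM, melanocyte genes to 1.60 and 1.01, vascular endothelial genes to 0.741 and 1.10, Schwann cell genes to 0.579 and 0.574, red blood cell genes to 0.672 and 2.6, and corneal endothelial genes to 3.45 and 3.97 CPM. No gene of these lists passed the floor.

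The genes with the lowest ratios of W over UW were of several kinds. *Kctd12*, a subunit associated with GABA-B receptors, fell from 248 to 13.2 CPM (log2 −4.23), and *Ttc36* from 109 to 7.77 CPM (log2 −3.81). *Ly6g6c*, a Ly6 family surface protein, fell from 1187 to 103 CPM (log2 −3.52). *Cdo1*, cysteine dioxygenase, fell from 393 to 39.4 CPM (log2 −3.32), *Cbr2*, carbonyl reductase 2, from 651 to 67.1 CPM (log2 −3.28), and *Aldh1a1*, a retinaldehyde dehydrogenase, from 77.2 to 12.4 CPM (log2 −2.64). The small heat shock protein gene *Cryab* fell from 283 to 34.1 CPM (log2 −3.06), the phosphate transporter gene *Slc34a2* from 52.1 to 7.15 CPM (log2 −2.87), the zinc transporter gene *Slc39a8* from 126 to 19.1 CPM (log2 −2.72), and *Cd109*, a surface protein that binds TGF-beta, from 180 to 28.9 CPM (log2 −2.64). *Ly6g6c*, *Cdo1*, *Cbr2*, *Cryab* and *Cd109* had their lowest ratio of the 10 clusters in cluster 4, while *Kctd12* was lower in cluster 2 (log2 −4.40) and *Ttc36* in cluster 1 (log2 −4.20). Per thinned cell, *Kctd12* had a UMI in 66.6% (64.1 to 68.9) of UW and 5.82% (4.38 to 7.57) of W cells, beside 22.6% and 14.4% in the stroma.

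Desmosome genes gave 3 of the genes that were higher in cluster 4 than in the other clusters. Of the 14 listed, 9 could be compared with the other clusters, and *Dsg1a*, *Dsc2* and *Pkp1* were above the other clusters by log2 1 or more in both libraries. Among all 2322 genes compared in this way, 29 (1.25%) were higher in cluster 4 and 98 (4.22%) lower. Against the summed counts of all other epithelial cells, in place of the mean of the clusters, 12 were higher and 46 lower, 10 and 45 of them shared, and *Dsc2* was no longer past log2 1 in UW (0.93). *Dsg1b*, *Dsg3*, *Jup* and *Dsc2* were also at their highest in cluster 4 in both libraries. Between the libraries 10 members were past the floor, of which 3 fell and 1 rose, beside 14% of all genes lower and 7.61% higher. *Dsg1a* fell as given above, the desmocollin gene *Dsc3* fell from 620 to 141 CPM (log2 −2.14) and the desmoplakin gene *Dsp* from 2738 to 1068 CPM (log2 −1.36), whereas the plakophilin gene *Pkp3* rose from 137 to 391 CPM (log2 1.51). *Dsg3*, the desmoglein of lower layers in skin, had 355 and 494 CPM (log2 0.48), *Jup* 927 and 1040 CPM, *Pkp1* 487 and 497 CPM, *Dsc2* 855 and 571 CPM (log2 −0.58) and *Perp* 4290 and 2434 CPM (log2 −0.82). The median of the 10 was log2 −0.65, and the summed list went from 11216 to 6807 CPM. Per thinned cell the list had a median of 56 UMIs in UW and 32 in W, beside 52 and 31 in cluster 1. In cluster 1 the summed list was 10503 CPM in UW and 6537 CPM in W, near that of cluster 4.

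**Figure D4:**
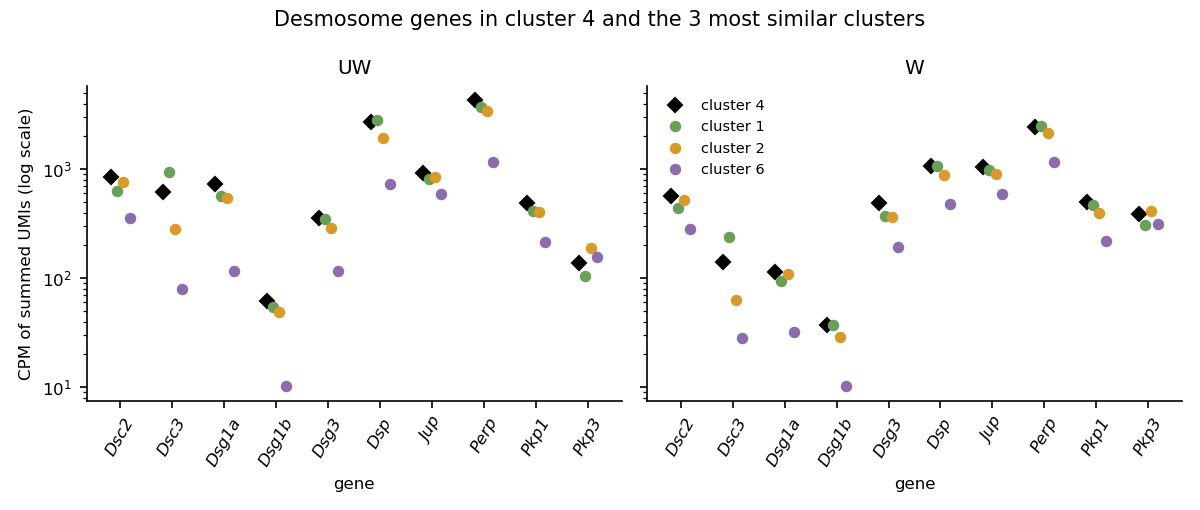
Summed levels in CPM (log axis) of the 10 desmosome genes past the floor in cluster 4 (black diamonds) and clusters 1, 2 and 6, for UW on the left and W on the right. *Dsp* in cluster 4 was at 2738 CPM in UW and 1068 CPM in W, and *Pkp3* at 137 and 391 CPM.

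Of the 16 tight junction genes listed, 12 were past the floor, and 1 of these rose, near the 7.61% of all genes. It was *Cldn1*, which went from 29.2 to 250.0 CPM (log2 3.1), which took cluster 4 from rank 7 to rank 1 of the 10 clusters for this claudin. *Cldn3* had 189 and 98.7 CPM (log2 −0.93), *Cldn4* 1094 and 1112, *Cldn7* 1042 and 1339, and *Ocln*, occludin, 63.9 and 76.6 CPM. Of the 6 membrane mucins, *Muc15* and *Muc4* were past the floor. *Muc4* had 420 and 386 CPM (log2 −0.12), *Muc1* 6.39 and 6.66 CPM, and *Muc16* had no UMI in UW and 0.75 CPM in W.

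All 4 stress keratins were past the floor, and 2 rose, beside 7.61% of all genes. These were *Krt16* and *Krt17*, with values given above, and the partner genes *Krt6a*, with 5603 and 10045 CPM (log2 0.84), and *Krt6b*, with 4230 and 6678 CPM (log2 0.66), were short of log2 1. *Krt17* passed the floor through W alone. *Krt6a* and *Krt6b* are near-identical, so the split of reads between them is uncertain. *Krt6a* was above the mean of the other clusters by log2 1.17 in UW and 1.09 in W. Per thinned cell its mean was 28.1 and 48.7 UMIs, beside 33.3 and 49.0 in cluster 2 and 15.8 and 41.4 in cluster 1. The list had a median of 52 UMIs per thinned cell in UW and 146 in W. These medians were 77 and 140 in cluster 2, 79 and 99 in cluster 6, and 26 and 96 in cluster 1.

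Among the 8 EGF receptor ligands, 3 were past the floor. *Areg* rose, *Epgn*, epigen, had 97.1 and 187 CPM (log2 0.95), and *Hbegf* had 694 and 605 CPM (log2 −0.20). Of the receptors and sheddases, 2 of 5 were past the floor, *Egfr* with 83.6 and 61.1 CPM (log2 −0.45) and *Erbb3* with 101 and 95.4 CPM (log2 −0.08). Of 9 feedback inhibitors, *Dusp5*, an ERK phosphatase, rose from 84.1 to 460 CPM (log2 2.45), and *Errfi1* had 180 and 320 CPM (log2 0.83). Of 12 AP-1 and immediate early factors, 11 were past the floor, of which 1 rose and 3 fell, beside 7.61% and 14% of all genes. *Fosl1* rose from 18.4 to 70.3 CPM (log2 1.94), while *Egr1* fell from 690 to 208 CPM (log2 −1.73), *Fos* from 2204 to 956 CPM (log2 −1.21) and *Jund* from 1465 to 654 CPM (log2 −1.16). *Jun* had 3395 and 5027 CPM and *Atf3* 1336 and 2170 CPM, each the highest of the 10 clusters in W.

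Cornified envelope genes, which give the protein shell of keratinised cells, formed a list of 22, with 21 in the table and 6 past the floor. Of these 3 rose, beside 7.61% of all genes. *Sprr1a* rose from 52.9 to 751 CPM (log2 3.83), *Sbsn* from 5.47 to 62.4 CPM (log2 3.51) and the transglutaminase gene *Tgm1* from 38.5 to 110.5 CPM (log2 1.52). Of these, *Sbsn* and *Tgm1* passed the floor through W alone. *Ppl* and *Evpl*, the plakin genes periplakin and envoplakin, had 1277 and 774 CPM (log2 −0.72) and 861 and 668 CPM (log2 −0.37). *Ivl*, involucrin, had 8.50 and 17.4 CPM, under the floor, and the near-identical *Sprr2* genes were at or below 36.7 CPM. Of 7 further S100 genes, 5 were past the floor and *S100a11* rose from 2726 to 7132 CPM (log2 1.39), while *S100a6* had 15107 and 27874 CPM (log2 0.88).

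**Figure D5:**
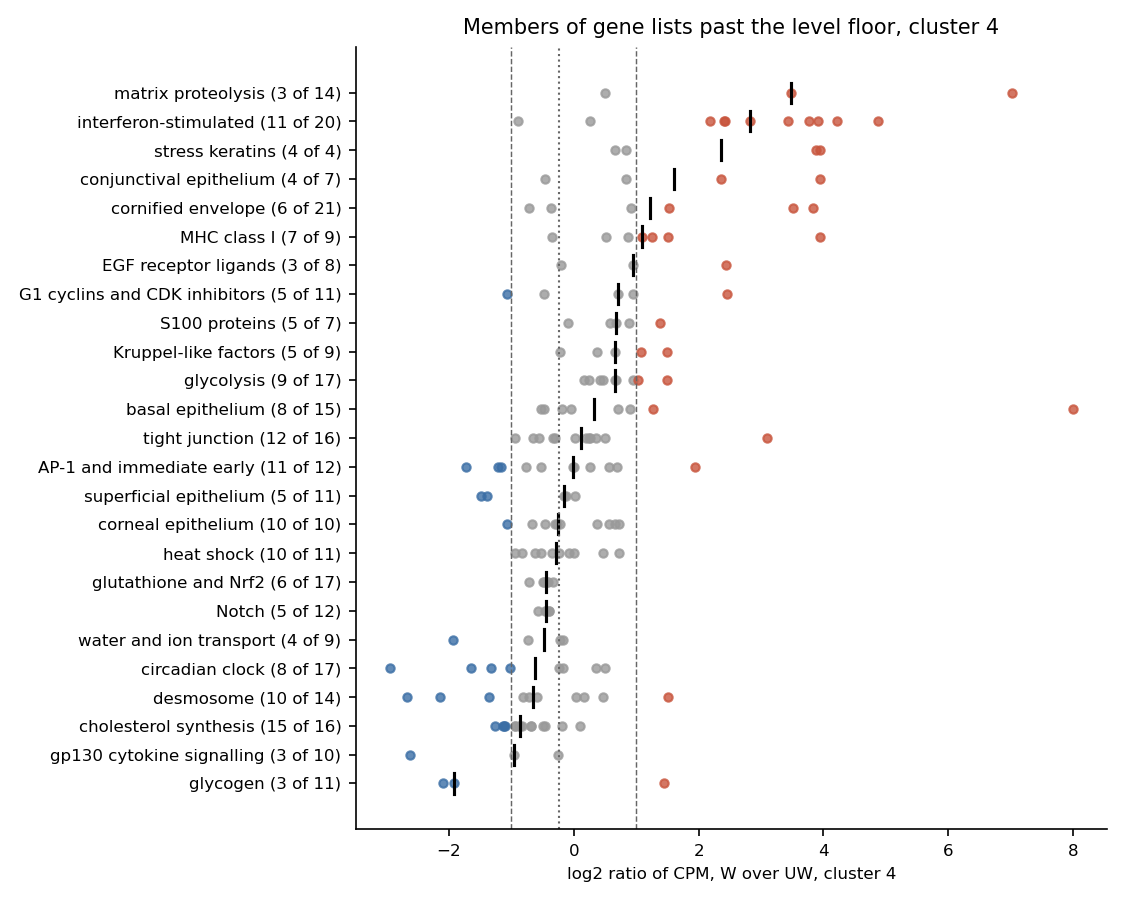
Log2 ratio of CPM in W over UW for each member past the level floor of 25 gene lists with at least 3 such members, in cluster 4. Red and blue points are past log2 1 and −1 (dashed lines), black bars are list medians, the dotted line is the median of all 2798 genes (−0.24), and numbers after each name are the members past the floor of those in the table.

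Interferon-stimulated genes were the list with the most members that rose. Of 20 genes, 11 were past the floor and 9 rose, beside 7.61% of all genes, with a median of log2 2.82. Besides *Bst2*, *Ifit3* went from 12.4 to 229 CPM (log2 4.21), *Isg15* from 22.1 to 300.4 CPM (log2 3.77) and *Ifit1* from 29.0 to 312 CPM (log2 3.43). *Irf7*, a factor that amplifies the response, went from 20.9 to 111 CPM (log2 2.41). *Bst2*, *Ifit3*, *Isg15*, *Ifit1* and *Irf7* passed the floor through W alone. *Ifi27* had 114 and 136 CPM and *Ddx58*, the RNA sensor RIG-I, 57.1 and 30.8 CPM (log2 −0.89). Per thinned cell the list had a median of 2 UMIs in UW, against 9 in W. The list summed to 421 CPM in UW and 2003 CPM in W, and in the other 9 epithelial clusters to between 296 (cluster 8) and 4843 CPM (cluster 7) in UW and between 453 (cluster 9) and 6548 CPM (cluster 7) in W. MHC class I genes rose in 4 of the 7 past the floor, of 9 listed, beside 7.61% of all genes. *B2m*, the light chain, rose from 39.3 to 605 CPM (log2 3.94), the proteasome gene *Psmb9* from 31.8 to 91.1 CPM (log2 1.52), *H2-D1* from 219 to 524 CPM (log2 1.26) and *H2-K1* from 302 to 645 CPM (log2 1.10). Of these, *B2m* and *Psmb9* passed the floor through W alone. In the stroma, the MHC class I list summed to 1461 CPM in UW and 5385 CPM in W, above the 847 and 2228 CPM of cluster 4, and the interferon list to 769.8 and 2657 CPM, also above it. The part of free RNA in both lists was not tested. *H2-D1* and *H2-K1* share long stretches of sequence, and the split of reads between them is uncertain.

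Cytokine genes were mostly low, and their counts stand beside 7.61% of all genes higher and 14% lower. Of 12 chemokines, *Cxcl16* was past the floor, with 57.6 and 103 CPM (log2 0.84), and *Cxcl2* had 0.324 and 28.2 CPM. Of 16 genes of the interleukin 1 family, 12 were in the table and 2 past the floor. *Il1a* rose from 80.4 to 210 CPM (log2 1.39), and *Il18* had 258 and 162 CPM (log2 −0.67). In gp130 signalling, 3 of 10 genes were past the floor and *Socs3*, the feedback inhibitor of this pathway, fell from 316 to 51.1 CPM (log2 −2.63), while *Stat3* had 140.3 and 72.4 CPM (log2 −0.95). None of the 10 acute phase and antimicrobial genes was past the floor, and they summed to 5.88 and 61.4 CPM, against 5306 CPM in the stroma of W. None of the 9 eicosanoid enzymes was past it either, although *Ptgs2*, cyclooxygenase 2, had 1.48 and 43.2 CPM.

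Genes of migration and matrix had few members past the floor, against a background of 7.61% of all genes higher and 14% lower. Of 11 integrins, *Itga6* and *Itgav* (43.2 and 68.5 CPM, log2 0.67) were past it. Of 9 wound matrix genes, *Cyr61* rose from 111 to 615 CPM (log2 2.47), the highest of the 10 clusters in W, and *Fn1*, fibronectin, had 33.7 and 8.30 CPM. Of 14 proteolysis genes, *Plaur*, the urokinase receptor, rose from 6.51 to 72.4 CPM (log2 3.48) besides *Mmp3*, and *Mmp14* had 49.1 and 69.4 CPM (log2 0.50). Of 5 hyaluronan genes, *Cd44* was past the floor with 357 and 248 CPM (log2 −0.52). In the TGF-beta list, 2 of 11 were past it, *Skil* with 95.3 and 156 CPM (log2 0.71) and *Tgfbi* with 243 and 258 CPM (log2 0.09).

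Cells of the cluster had few transcripts of division. None of the 14 replication and 12 mitosis genes was past the floor. The replication genes summed to 52.2 CPM in UW and 103 CPM in W, against 1033 and 1061 CPM in cluster 8, and the mitosis genes to 9.50 and 72.3 CPM, against 2862 and 1953. Among G1 genes, 5 of 11 were past the floor, of which 1 rose and 1 fell, beside 7.61% and 14% of all genes. The CDK inhibitor gene *Cdkn1a* fell from 968 to 461 CPM (log2 −1.07) and was the second highest of the 10 clusters in both libraries, *Ccng2* rose from 20.1 to 110.5 CPM (log2 2.46), and *Cdkn2b* had 111 and 216 CPM (log2 0.95).

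In the lists of regulators, 5 of 12 Notch genes were past the floor and none was past log2 1 in either direction. *Notch1* had 53.2 and 35.9 CPM (log2 −0.57), the target *Hes1* 796 and 580 CPM (log2 −0.46), and *Nrarp*, a target and inhibitor, 190 and 144 CPM. *Nrarp* was above the other clusters by log2 1.21 in UW and 1.09 in W. Of 9 Kruppel-like factors, 5 were past the floor. *Klf6* rose from 347 to 979 CPM (log2 1.5), from rank 7 to rank 1 of the 10 clusters, and *Klf7* from 24.0 to 50.8 CPM (log2 1.08), while *Klf4*, a factor of barrier formation, had 1152 and 1815 CPM (log2 0.66). Of 17 clock genes, 8 were past the floor, 4 fell and none rose, beside 14% of all genes lower and 7.61% higher. *Hlf* fell from 218 to 28.4 CPM (log2 −2.94), *Tef* from 53.2 to 16.9 CPM (log2 −1.65), *Dbp* from 99.4 to 39.6 CPM (log2 −1.33) and *Per3* from 56.3 to 27.8 CPM (log2 −1.01), while *Clock* had 117 and 99 CPM.

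The metabolic lists are to be read beside 7.61% of all genes higher and 14% lower. Of 17 glycolysis genes, 9 were past the floor with a median of log2 0.66, and *Pkm* (143 to 401 CPM, log2 1.49) and *Tpi1* (98.2 to 201 CPM, log2 1.04) rose. Of 11 glycogen genes, 3 were past it. *Pygl*, glycogen phosphorylase, fell from 72.4 to 17.0 CPM (log2 −2.09), *Gyg*, the glycogen primer glycogenin, from 384 to 101 CPM (log2 −1.92), and *Pgm1* rose from 20.2 to 55.1 CPM (log2 1.45). Of 16 genes of cholesterol synthesis and uptake, 15 were past the floor, with a median of log2 −0.86, and 4 fell. *Idi1* fell from 325 to 136 CPM (log2 −1.25), *Insig1* from 129 to 58.6 CPM (log2 −1.14), *Hmgcs1* from 478 to 219 CPM (log2 −1.12) and *Cyp51* from 296 to 137 CPM (log2 −1.11), and 10 of the other 11 had a ratio below 0. Their median over the other clusters was log2 0.88 in UW and 0.28 in W.

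None of the 6 glutathione and Nrf2 genes past the floor, of 17, and none of the 10 heat shock genes past it, of 11, moved by log2 1, where 7.61% of all genes were higher and 14% lower. *Cryab*, which fell as given above, was not on the heat shock list. *Prdx6* had 596 and 364 CPM (log2 −0.71) and *Gpx4* 348 and 247 CPM (log2 −0.50), and *Gsta4*, a glutathione transferase that was highest in cluster 4 in both libraries, had 10917 and 8141 CPM. *Hspb1* had 5023 and 2628 CPM (log2 −0.93) and *Dnajb1* 652 and 366 CPM (log2 −0.83). Of 9 genes of water and ion transport, 4 were past the floor and *Slc12a2*, a sodium, potassium and chloride cotransporter, fell from 157 to 40.8 CPM (log2 −1.94). *Atp1b3* had 248 and 149 CPM (log2 −0.74) and the aquaporin gene *Aqp5* 10326 and 8884 CPM.

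The genes that ranked highest against the other 9 epithelial clusters, by the smaller ratio of the libraries and among genes with 50 CPM in cluster 4 or in the mean of the others in each library, were *Dsg1a*, *Fermt3*, *Cnksr3*, *Muc15*, *Map3k6*, *Gm45941*, *Piga*, *Clip4*, *Fam25c*, *Nbeal2*, *Dsc2* and *Guca1a*. *Cldn17*, with a smaller ratio of log2 1.75, was above *Dsg1a* with 1.70 but not past that floor, at 47.0 CPM in UW. *Fermt3*, an integrin-binding kindlin, had 103 CPM in UW and 112 CPM in W, against means of 37.4 and 33.4 CPM elsewhere. *Piga*, which starts the synthesis of GPI anchors, had 428 and 366 CPM against 178 and 130, and *Map3k6*, a stress-activated kinase, 236 and 213 CPM against 73.4 and 79.1. *Cnksr3*, a scaffold protein, had 64.2 and 75.3 CPM against 23.0 and 27.7, and *Guca1a*, known as an activator of retinal guanylate cyclase, 260 and 354 CPM against 110 and 155 CPM. *Gm45941* (139 and 57.4 CPM) and *Clip4* (321 and 141 CPM) fell in W by log2 1.28 and 1.18. *Fam25c* had 148 and 129 CPM and *Nbeal2* 101 and 144 CPM. *Dsg1a*, *Fermt3*, *Piga*, *Clip4* and *Dsc2* ranked 1 of 10 in both libraries, although *Fermt3* had 94.8 and 98.6 CPM in cluster 1. *Nbeal2* was higher in cluster 2 in both libraries (116 and 161 CPM), and *Fam25c* in cluster 1 of UW (161 CPM). In W, cluster 2 was above cluster 4 for *Cnksr3* (75.7 CPM), *Muc15* (101), *Map3k6* (224), *Gm45941* (66.1) and *Guca1a* (369 CPM). Between the libraries, 7 of these 12 genes had a log2 ratio between −0.23 and 0.51 and *Dsc2* one of −0.58.

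The genes that ranked lowest against the other clusters were *Lce3a*, *Plekhs1*, *Krt7*, *Ripply3*, *AA467197*, *Psca*, *Chac1*, *Itgb4*, *Spns2*, *Tspan1*, *Slc6a6* and *Stmn1*. Basal cells are known for *Itgb4* and dividing cells for *Stmn1*, and superficial or conjunctival cells for *Psca*, *Lce3a* and *Krt7*. *Psca* had 411 and 370 CPM against means of 8581 and 4810 CPM elsewhere, *Itgb4* 1.37 and 11.9 CPM against 71.1 and 108 CPM, *Stmn1* 2.36 and 25.5 CPM against 127 and 151 CPM, and *Krt7* 4.89 and 13.5 CPM against 173 and 277 CPM. Means over clusters follow the highest cluster for genes such as *Lce3a*, with 7.83 and 6.22 CPM against 286 and 254 CPM. The taurine transporter gene *Slc6a6* had 39.1 and 27.0 CPM against 595 and 189 CPM, and *Chac1*, an enzyme that breaks down glutathione, 7.25 and 9.89 CPM against 128 and 114 CPM. Of 3306 genes with 50 CPM or more in an epithelial cluster of each library, 46 (1.39%) were highest in cluster 4 in both, beside 312 of 3991 (7.82%) in UW and 258 of 3720 (6.94%) in W.

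By Pearson's r across genes, relative to the mean of the 10 clusters, cluster 4 was most like cluster 2 (0.700 over 3991 genes in UW and 0.807 over 3720 in W). By the mean r of the libraries, cluster 1 (0.637 and 0.443) and cluster 6 (0.154 and 0.463) came next, although cluster 6 was ahead of cluster 1 in W and cluster 5 (0.190) ahead of cluster 6 in UW. It was least like cluster 9 (−0.565 and −0.739). Genes are not independent replicates and the clusters share libraries, so r is a description. Cluster 4 stood nearer to cluster 1 in UW than in W, and nearer to cluster 6 in W than in UW.

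The 3 nearest clusters were therefore set beside it one by one, with genes ranked after the values had been seen. Against cluster 2, 21 of 2108 genes (0.996%) were higher in cluster 4 by log2 1 in both libraries and 34 (1.61%) lower. The higher ones included *Dusp7*, an ERK phosphatase (86.9 and 129 CPM, against 17.9 and 35.7), the thioredoxin gene *Txn1* (570 and 3745 CPM, against 208 and 1161) and the basal plakin gene *Dst* (143 and 103 CPM, against 53.6 and 40.0). The lower ones included *Psca* (411 and 370 CPM, against 5893 and 3993), *Asprv1*, a protease of late keratinocyte differentiation (1677 and 308 CPM, against 11736 and 3229), and *Muc20* (41.7 and 29.8 CPM, against 130 and 112).

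Against cluster 1, 36 of 2188 genes (1.65%) were higher and 11 (0.503%) lower. The higher ones included *Muc4* (420 and 386 CPM, against 69.6 and 73.5), *Hopx*, a homeodomain protein of differentiating epithelia (1200 and 589 CPM, against 228 and 125), *Krt13* (1834 and 3271 CPM, against 285 and 977) and *Spink5*, a protease inhibitor of the upper layers (206 and 252 CPM, against 24.3 and 73.5). The lower ones included the metallothionein genes *Mt1* (296 and 183 CPM, against 955 and 586) and *Mt2* (66.6 and 76.4 CPM, against 314 and 271), the connexin 43 gene *Gja1* (25.9 and 35.3 CPM, against 95.4 and 104) and the Wnt antagonist gene *Sfrp1* (27.7 and 20.9 CPM, against 81.6 and 52.6). Against cluster 6, 190 of 2230 genes (8.52%) were higher and 174 (7.8%) lower, with *Psca* at 28761 and 16390 CPM and *Asprv1* at 28493 and 13517 CPM in cluster 6. On *Psca* and *Asprv1*, cluster 4 was thus below cluster 2, and cluster 2 below cluster 6, in both libraries.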

How the data were processed

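Corneas were dissociated with dispase, trypsin and collagenase, and 3' libraries of UW and W cells were made with a 10x Genomics kit (V2 in the study's methods, v3 per the labels). The authors aligned the reads with Cell Ranger 3.1.0 to mm10-2020-A (mm9 in the submitters' processing notes), removed low-quality cells and doublets, integrated the libraries with Seurat and clustered them at resolution 0.4. The deposited counts are raw UMI counts per gene and cell, and the cell table holds the cluster numbers and doublet calls. Groups were taken from the labels, and 0 columns could not be mapped.

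For each library and cluster the counts were summed and divided by the total UMIs to give CPM. Exact Poisson intervals of CPM and Clopper-Pearson intervals of shares are at 95%. Genes were compared if they had at least 50 CPM in a library and at least 20 counts, and were called at an absolute log2 ratio of at least 1. With 1 library per condition no test was possible. Cluster 4 was compared with the unweighted mean of the 9 other epithelial clusters, with the floor of 50 CPM met in each library by cluster 4 or by that mean, and a call needed the same direction in both libraries. For shares of cells with a UMI, cells were thinned to 5000 UMIs. Named genes were the 5 markers, the 12 largest and 12 smallest ratios of each comparison (ribosomal, mitochondrial and haemoglobin genes left out), and members of 49 gene lists, always including the 2 that moved most past the floor. The members and lists were chosen with earlier results of these data known. Gene positions are those of GENCODE M21 on GRCm38, which held 19925 of the 20198 genes. Scaling by TMM and by size factors, cell filters, depth, floors and the comparison clusters were varied. The calculations were tested on simulated data. Python 3.11.15, numpy 2.4.6, pandas 2.3.3, scipy 1.17.1, matplotlib 3.10.9, R 4.3.3, edgeR 4.0.16 and DESeq2 1.42.0 were used, the last of these for scaling factors only.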

Additional observations from a re-analysis of the deposited data

Results flagged for a closer look

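*Ndrg1*, a stress-responsive gene of differentiating epithelia, had a ratio of W over UW of log2 1.48 in cluster 4 (21.4 CPM in UW and 59.5 CPM in W) and moved the opposite way in 2 of the 3 most similar clusters. The ratio was log2 −1.32 in cluster 2 (139 and 55.8 CPM) and log2 −2.17 in cluster 6 (496 and 110 CPM). With 1 library per condition, the difference between clusters was not tested.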

How the results depend on the processing

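The change in the share of cluster 4 among epithelial cells, −0.65 percentage points, was −0.18 points without the cells marked in the deposited doublet calls, −1.99 points with all cells as the denominator and 1.37 points without clusters 8 and 11, an alternative chosen after seeing the data, and the cause was not tested. With a floor of 20 CPM in place of 50, 359 genes were higher and 736 lower in W, and 241 were lower in cluster 4 than in the other clusters. With no CPM floor, 1728 were higher and 1690 lower in W, and 162 were higher and 1791 lower in cluster 4. More genes could be called under these floors by construction. Against the summed counts of the other epithelial cells, 12 genes were higher in cluster 4 and 46 lower, of which 10 and 45 were shared with the 29 and 98 reported. Without clusters 8 and 11 among the others, 20 were higher and 90 lower, of which 18 and 72 were shared.

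TMM factors gave 226 genes higher and 365 lower in W, size factors 233 and 350, and thinned cells 259 and 497. Scaling shifted the log2 ratio of W over UW by 0.03 (TMM) and 0.05 (size factors). The floor on the mean of both libraries (173 and 295) and the alternatives for the 3 nearest clusters were also chosen after seeing the data. Among the 5 markers and the 12 genes named at each end of both comparisons, no ratio changed sign under the alternatives run. Of the list medians run, that of the AP-1 list changed sign, from −0.02 to 0.01 with TMM and to between 0.02 and 0.07 with size factors, per-cell means, cells of 10000 to 40000 UMIs and thinned cells. Single list members and the genes named against the nearest clusters were not rerun. Leaving out a replicate was not possible with 1 library per condition. No paired analysis was possible because each condition was 1 library. Depth limits genes under about 20 counts, and animal-to-animal spread is unknown.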
